A study of Mus musculus with 6 samples.

Results

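The 7 genes described here encode the kainate receptor subunits (Grik1, Grik2, Grik3, Grik4 and Grik5) and their auxiliary proteins (Neto1 and Neto2). They were chosen by name, with earlier results of these data known, and each had 1 row among the 24935 genes of the deposited table. RNA came from the left hippocampus of C57BL/6 mouse pups at postnatal day 14 (P14), 1 library per animal. The 3 pups of the hyperoxia group had been kept with their dams in 85% oxygen at normal pressure from P2 to P14, and the 3 pups of the air group had been kept with their dams in room air over the same days. The labels name no mutation and no other agent in either group. Pups of both sexes were exposed, and the labels do not give the sex or litter of an animal. The deposited columns carry a group name and a number (1 to 3), which does not say which animal a column holds. Libraries are therefore called air 1 to 3 and hyperoxia 1 to 3. Every direction below rests on those column names. The sources used here leave it in doubt whether the names are the right way round, and no measurement used here checks them. If they were exchanged, the sign of each difference would turn and its size and p would stay.

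Kainate receptors are glutamate-gated cation channels built from 4 subunits. GluK1, GluK2 and GluK3, the products of Grik1 to Grik3, bind kainate with low affinity and can form channels on their own, whereas GluK4 and GluK5, the products of Grik4 and Grik5, bind it with high affinity and reach the surface as channels together with a low-affinity subunit. Neto1 and Neto2 are single-pass membrane proteins with extracellular CUB domains that bind the receptor and slow its closing and desensitization. In the hippocampus these receptors are best known at the synapses of dentate granule cell axons (mossy fibres) onto CA3 pyramidal cells and on GABAergic interneurons.

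The 5 subunit genes share the coding stretch of the channel's pore loop. It is shown here because it is a site at which subunits differ after transcription: in Grik1 and Grik2 transcripts an adenosine of the glutamine codon can be edited by ADAR enzymes so that it reads as arginine. The codon lies at chr16:87940542-87940544 in exon 13 of Grik1, chr10:49244329-49244331 in exon 12 of Grik2, chr4:125691207-125691209 in exon 12 of Grik3, chr9:42547623-42547625 in exon 14 of Grik4 and chr7:25022497-25022499 in exon 15 of Grik5 (GRCm38, GENCODE release M21 transcripts). The stretches below run from 5′ to 3′ in the sense of the gene, 51 bases each, with the glutamine codon in capitals.
Grik1: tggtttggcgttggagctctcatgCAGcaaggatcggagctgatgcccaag
Grik2: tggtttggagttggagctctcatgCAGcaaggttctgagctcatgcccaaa
Grik3: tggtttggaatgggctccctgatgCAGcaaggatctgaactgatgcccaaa
Grik4: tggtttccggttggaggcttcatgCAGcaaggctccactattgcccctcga
Grik5: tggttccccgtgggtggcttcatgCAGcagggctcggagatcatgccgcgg
The codon is CAG in all 5 reference transcripts. Grik1 and Grik2 are identical at 46 of the 51 bases and Grik3 matches Grik2 at 42, while Grik4 and Grik5 match each other at 36. The deposited table holds 1 count per gene, so edited and unedited transcripts were not told apart.

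The values are normalized counts, that is, reads per gene after division by the library's size factor, as the authors deposited them. The libraries held between 30384052 and 38746972 reads on genes. Each member had between 735 and 14067 reads in every library, and all 7 passed the filter of a mean of at least 10 that left 17778 genes for testing. Groups were compared with limma on log2 of the normalized count plus 1 (differences are hyperoxia minus air). P-values were adjusted by Benjamini-Hochberg over all genes tested, and a gene was called at an adjusted p under 0.05. By this rule 30.5% of all genes tested were called, 14.9% as higher and 15.6% as lower in hyperoxia. The count of called genes was 5425, and it was 3048 without air 1, 3087 without air 2 and 3378 without hyperoxia 1. Hyperoxia 2 lay apart from hyperoxia 1 and hyperoxia 3 on the second principal component, which held 19.5% of the variance, and without it 43.6% of genes were called. The neuronal marker genes Rbfox3, Snap25, Syt1 and Tubb3 and the granule cell marker Prox1 were present in every library. Of these, Rbfox3 (log2 difference −0.46, limma adjusted p = 0.0027) and Snap25 (−0.40, 0.011) were lower in hyperoxia, Tubb3 was higher (0.31, 0.029) and Syt1 was not called (0.26, 0.058), and their part in the members' differences was not tested. The choroid plexus markers were summed at between 479 and 1377 in the other 5 libraries and at 8065 in hyperoxia 3. Of that sum, Ttr alone gave 7454. Folr1 (87.8), Aqp1 (63.7) and Otx2 (60.8) were also highest in hyperoxia 3. Kl (385) lay within its air range there, and Kcnj13 was not highest there.

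Of the 7 members, 2 rose in hyperoxia (Grik3 and Neto2), 1 fell (Grik4) and 4 were not called (Grik1, Grik2, Grik5 and Neto1). The 3 called genes make up 42.9% of the members beside 30.5% of all genes. The median log2 difference was 0.03 over the members and −0.01 over all genes tested. The groups did not overlap for these 3 members, as was the case for 46.1% of all genes tested (22.3% higher and 23.8% lower in hyperoxia). In a design of 3 against 3, the smallest p that exact permutation (two-sided) allows for 1 gene is 0.1. Tissue was not separated into cell types, so fewer cells of a type and less RNA per cell cannot be told apart in any value below.

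**Figure D1:**
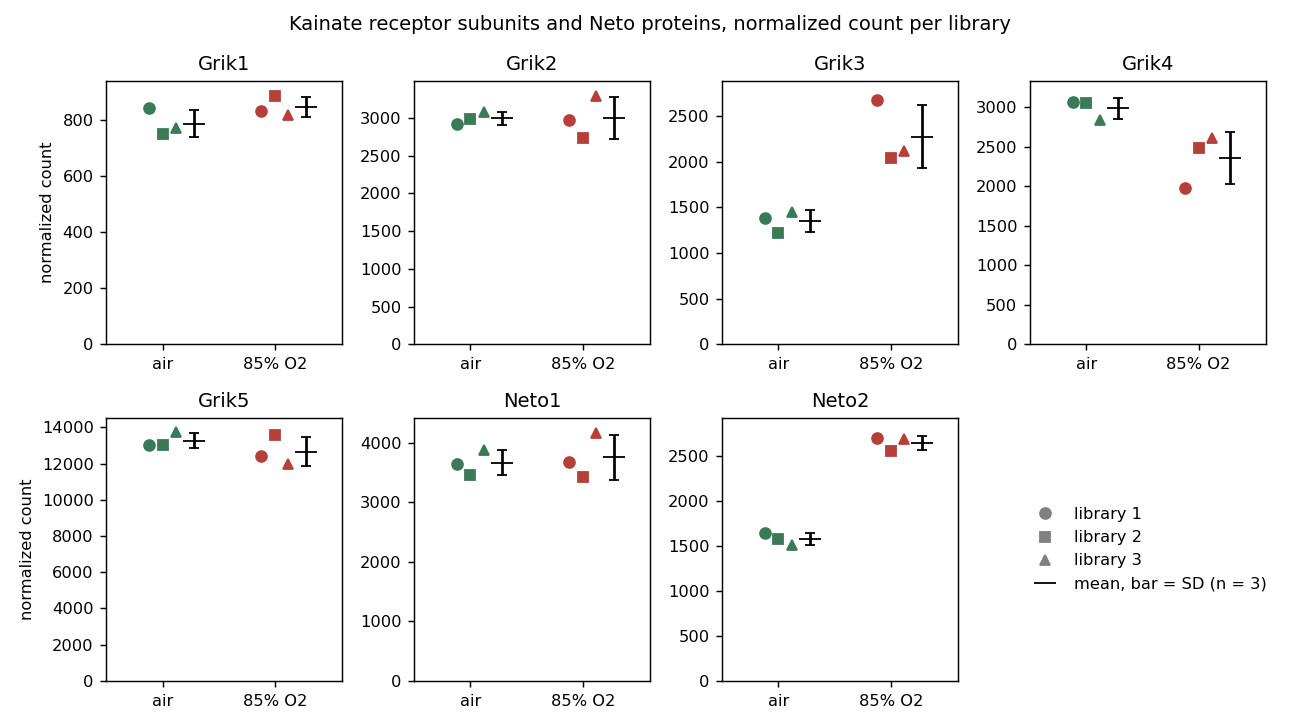
Normalized count (vertical axes, from 0) of the 7 members in each of the 3 air (green) and 3 hyperoxia (red) libraries, with symbols for the library number and a black mark with a bar for the mean ± SD. Grik3 and Neto2 lay higher in all 3 hyperoxia libraries and Grik4 lower, while the other 4 genes overlapped.

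Among the low-affinity subunits, Grik3 was the member that changed. Grik3 (ENSMUSG00000001985.9) spans chr4:125490700-125714173 on the plus strand of GRCm38. Its normalized count was 1384, 1214 and 1451 in air 1 to 3 and 2674, 2037 and 2118 in hyperoxia 1 to 3. The lowest hyperoxia library was thus above the highest air library, and hyperoxia 1 stood above the other two. The means were 1349.7 ± 122 in air and 2276 ± 347 in hyperoxia (SD, n = 3 each), a log2 difference of 0.75 (standard error 0.11, 95% interval 0.49 to 1.0, limma adjusted p = 0.0018) or a 1.68-fold higher level. The size of this difference was larger than that of 90.0% of the genes tested. Each of the 17 alternative analyses called Grik3, and leaving out single libraries gave values between 0.63 and 0.82.

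The 250 bases before the RefSeq start of Grik3 are given because the gene rose in every hyperoxia library, at chr4:125490446-125490695 on the plus strand (GRCm38.p6). Capitals mark each GC box, the letters GGGCGG on either strand.
Grik3 promoter: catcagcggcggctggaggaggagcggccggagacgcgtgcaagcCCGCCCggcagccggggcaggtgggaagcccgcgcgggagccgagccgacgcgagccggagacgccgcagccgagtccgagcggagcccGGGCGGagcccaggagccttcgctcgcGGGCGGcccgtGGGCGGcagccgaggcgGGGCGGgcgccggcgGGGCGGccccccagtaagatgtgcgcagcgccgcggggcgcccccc
The window had a GC content of 82.0% with 42 CpG dinucleotides, against medians of 52.4% and 6 over 32851 RefSeq promoter windows of the same length. It held 6 GC boxes, and at least 1 GC box was found in 32.7% of all windows. Of the motifs searched on both strands in the 5 promoters found for the members (Grik2, Grik3, Grik4, Grik5 and Neto2), no window held the cAMP response element TGACGTCA (in 1.55% of all windows), the AP-1 site TGANTCA (6.75%), the antioxidant response element core TGACNNNGC (10.2%) or the hypoxia response element core ACGTG (16.6%).

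Grik1 (ENSMUSG00000022935.15, chr16:87895900-88290265, minus strand), whose product GluK1 is prominent in interneurons, was the lowest member in normalized count. It was at 841, 748 and 771 in the air libraries and at 833, 886 and 818 in the hyperoxia libraries. The groups overlapped, since air 1 was above hyperoxia 1 and hyperoxia 3. With means of 787 ± 48.5 in air and 846 ± 35.9 in hyperoxia (SD, n = 3 each), the log2 difference was 0.11 (standard error 0.08, 95% interval −0.08 to 0.29, limma adjusted p = 0.36). None of the 17 alternatives called it.

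Grik2 (ENSMUSG00000056073.16, chr10:49094833-49788766, minus strand) encodes GluK2, the main low-affinity subunit of mossy fibre synapses. Its normalized count was 2918, 2983 and 3085 in air and 2979.8, 2739.8 and 3297 in hyperoxia. The hyperoxia libraries lay on both sides of the air libraries, hyperoxia 2 below and hyperoxia 3 above all of them. The means of 2995 ± 84.5 in air and 3006 ± 279.6 in hyperoxia (SD, n = 3 each) gave a log2 difference of 0.00 (standard error 0.08, 95% interval −0.18 to 0.18, limma adjusted p = 0.99). This was the value that depended most on the processing: once the dependence of each library on transcript length and GC content had been removed, Grik2 was called at −0.40 (limma adjusted p = 0.0020).

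Grik4 was the high-affinity subunit that fell. Grik4 (ENSMUSG00000032017.14, chr9:42518135-42944493, minus strand), which is enriched in CA3 pyramidal cells, had normalized counts of 3072, 3056 and 2839 in air and 1984, 2483 and 2616 in hyperoxia. Hyperoxia 1 was the lowest, and the gap between the highest hyperoxia library and the lowest air library was small beside the spread within hyperoxia. The means were 2989 ± 130.3 in air and 2361 ± 333 in hyperoxia (SD, n = 3 each). The log2 difference was −0.35 (standard error 0.10, 95% interval −0.58 to −0.12, limma adjusted p = 0.030), a level 0.785 times that in air. The call was lost without air 1 (limma adjusted p = 0.11), air 2 (0.11), air 3 (0.060) or hyperoxia 1 (0.088, with a difference of −0.23), and in limma without the trend (0.086). The sign was the same in all 17 alternatives, of which 12 called it. A gene of a short RNA on the same strand, Gm24420, overlaps 59 bases of its exons.

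The bases before Grik4 are shown for the contrast with Grik3, as the part of the RefSeq window that lies outside the GENCODE gene, 128 bases at chr9:42944494-42944621 on the minus strand (GRCm38.p6), with the GC box in capitals.
Grik4 promoter: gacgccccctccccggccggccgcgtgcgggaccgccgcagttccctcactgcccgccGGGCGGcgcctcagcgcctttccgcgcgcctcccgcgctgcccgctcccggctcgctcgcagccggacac
The whole window of 250 bases had a GC content of 69.6% and 36 CpG dinucleotides with 1 GC box.

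Grik5 (ENSMUSG00000003378.9, chr7:25009849-25072346, minus strand), which encodes GluK5, the most widely expressed high-affinity subunit, had the highest normalized count of the members. It was at 13034, 13011 and 13749 in air and at 12435, 13569 and 12003 in hyperoxia. Hyperoxia 2 fell inside the air range and the other two hyperoxia libraries below it. With means of 13264.5 ± 419.6 in air and 12669 ± 809 in hyperoxia (SD, n = 3 each), the log2 difference was −0.07 (standard error 0.07, 95% interval −0.23 to 0.10, limma adjusted p = 0.51). Grik5 was called under none of the 17 alternatives.

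Of the auxiliary proteins, Neto2 rose and Neto1 was not called. Neto2 (ENSMUSG00000036902.11) spans chr8:85636588-85700924 on the minus strand. Its normalized count was 1645, 1575 and 1504 in air and 2693, 2548 and 2679 in hyperoxia, so the groups were far apart beside the spread within each. The means of 1575 ± 70.6 in air and 2640.2 ± 79.7 in hyperoxia (SD, n = 3 each) gave a log2 difference of 0.75 (standard error 0.07, 95% interval 0.59 to 0.90, limma adjusted p = 3.3e-04), a 1.68-fold higher level. All 17 alternatives called Neto2. Its difference stayed between 0.71 and 0.78 with single libraries left out, and was 0.44 (limma adjusted p = 0.0026) after the correction for transcript length and GC content.

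The 250 bases before the RefSeq start of Neto2 that matches the GENCODE gene lie at chr8:85700925-85701174 on the minus strand (GRCm38.p6). They are shown beside those of Grik3, the other member that rose, with GC boxes in capitals.
Neto2 promoter: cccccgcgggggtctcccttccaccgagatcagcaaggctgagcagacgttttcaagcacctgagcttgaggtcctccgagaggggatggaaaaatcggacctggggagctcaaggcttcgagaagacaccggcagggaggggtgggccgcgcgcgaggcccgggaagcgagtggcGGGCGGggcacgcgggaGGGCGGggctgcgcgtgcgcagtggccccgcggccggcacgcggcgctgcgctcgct
Its GC content was 72.0% with 30 CpG dinucleotides and 2 GC boxes. The window of Grik5, which was not called, also had 2 GC boxes, at a GC content of 75.2%. That of Grik2, likewise not called, had 0 at 62.8%. A link between GC boxes and the members' differences was not tested. RefSeq lists 2 starts for Neto2, and the deposited table has 1 count for both.

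Neto1 (ENSMUSG00000050321.2, chr18:86394952-86506718, plus strand), the auxiliary protein of mossy fibre kainate receptors, was at 3644, 3465 and 3878 in air and at 3672, 3423 and 4169 in hyperoxia. The air range lay inside the hyperoxia range, with means of 3662 ± 207 and 3754 ± 379.9 (SD, n = 3 each). The log2 difference was 0.03 (standard error 0.09, 95% interval −0.16 to 0.23, limma adjusted p = 0.80). As with Grik2, the correction for length and GC content turned it, to −0.32 (limma adjusted p = 0.0046). An antisense gene, AC113599.1, overlaps 219 bases of the exons of Neto1, and reads there cannot be assigned where counting did not use the strand.

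**Figure D2:**
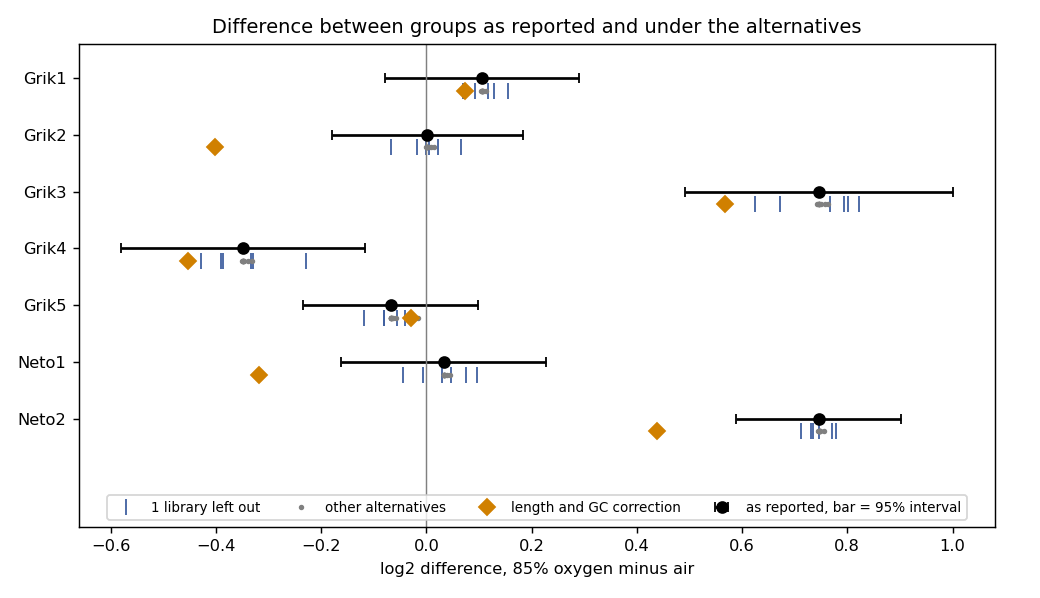
Log2 difference in normalized count, hyperoxia minus air (horizontal axis), for each member, with the reported value and its 95% interval in black and the alternatives beneath it (blue bars, 1 library left out; grey points, other settings; orange diamonds, length and GC correction). Neto2 and Grik3 stayed above 0 and Grik4 below 0 throughout, while the diamonds of Grik2 and Neto1 lie apart at −0.40 and −0.32.

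Over the whole table, the difference between the groups followed transcript length and base composition. In the fifth of tested genes with the shortest transcripts the median log2 difference was −0.15 and 5.69% of genes were called higher. In the fifth with the longest transcripts, of 5034 bases or more, the median was 0.18 and 31.1% were called higher. The median ran from 0.12 in the fifth of lowest GC content to −0.11 in the fifth of highest. The longest transcripts of Grik2 (9427 bases, 37.9% GC), Neto1 (8352 bases, 39.6% GC) and Neto2 (5610 bases, 36.5% GC) are long and poor in GC, and their differences moved by −0.40, −0.35 and −0.31. Grik3 (8973 bases, 54.2% GC) moved by −0.18 and was then at 0.57 (limma adjusted p = 0.0016), and Grik4 (5887 bases, 52.2% GC) moved by −0.10 and was then at −0.45 (0.0071). Grik1 and Grik5, with transcripts of 3655 and 4061 bases, moved by −0.03 and 0.04. After the correction 5 of the 7 members were called, 2 higher and 3 lower, beside 34.7% of all genes. The part of this trend in the members' differences was not tested beyond this correction.

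**Figure D3:**
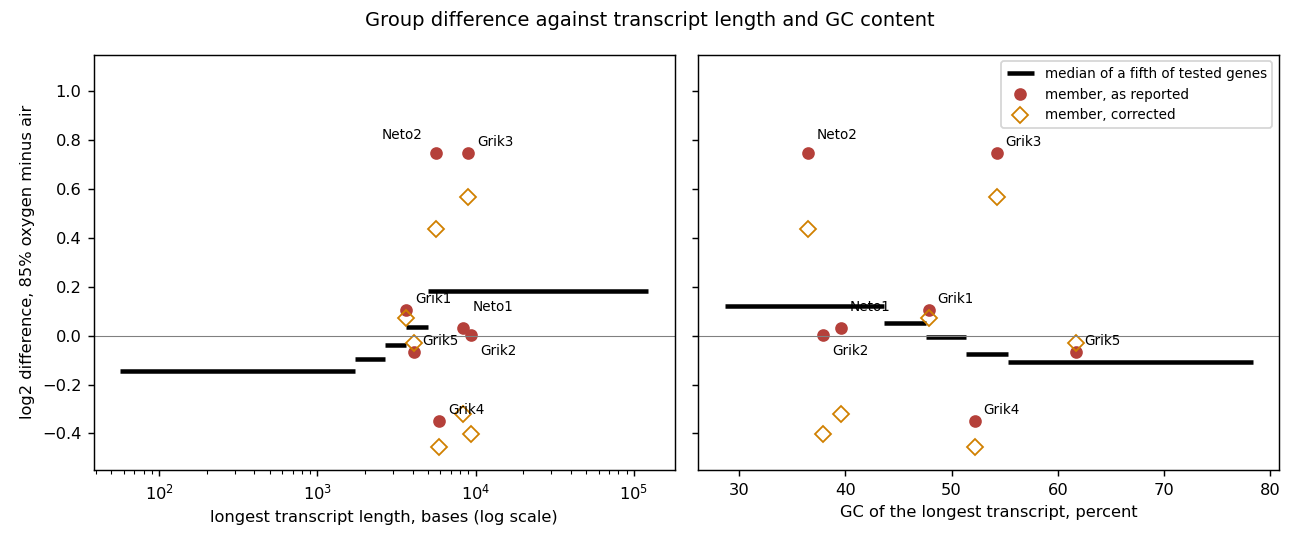
Log2 difference, hyperoxia minus air, against the length (left, log scale) and GC content (right) of the longest annotated transcript. Black lines are medians of 5 equal bins of the tested genes, red points the members as reported and open diamonds the members after the correction, and the medians rise with length from −0.15 to 0.18 and fall with GC content from 0.12 to −0.11.

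Levels were compared between genes as normalized count per kilobase of annotated exon. In air, Grik5 was highest at 2567 ± 81.2 (SD, n = 3) per kilobase, followed by Grik4 at 501 ± 21.9, Neto1 at 438 ± 24.8, Neto2 at 257 ± 11.5, Grik2 at 226 ± 6.38, Grik3 at 150.4 ± 13.6 and Grik1 at 117 ± 7.21. The ranges of neighbours in this order did not overlap. In hyperoxia the order of levels per kilobase was Grik5, Neto1, Neto2, Grik4, Grik3, Grik2 and Grik1. Here the ranges of Neto1 (449.5 ± 45.5), Neto2 (431 ± 13.0) and Grik4 (396 ± 55.8) ran into each other, as did those of Grik3 (254 ± 38.7) and Grik2 (227 ± 21.1). The order of the lower genes depends on the length used: with the longest transcript in place of all exons, Grik3 was below Grik1 in air and their ranges overlapped in hyperoxia.

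The same levels per kilobase give the make-up of the subunit pool. These shares are given without a test. The sum over the 5 subunits was 3562 ± 75.0 in air and 3454 ± 134 in hyperoxia (SD, n = 3 each), and the groups overlapped. Grik3 made up 4.36%, 3.86% and 4.43% of the sum in air 1 to 3 and 8.80%, 6.29% and 7.01% in hyperoxia 1 to 3. Grik4 made up 14.6%, 14.6% and 13.1% in air and 9.83%, 11.5% and 13.0% in hyperoxia, where hyperoxia 3 came close to air 3. Within the low-affinity subunits, Grik3 accounted for 30.4% ± 1.58 in air and 41.7% ± 3.84 in hyperoxia (SD, n = 3 each). The high-affinity subunits Grik4 and Grik5 together made up 86.1% ± 0.342 of the sum in air and 82.4% ± 1.75 in hyperoxia (SD, n = 3 each). Neto2 was 38.1%, 38.3% and 34.6% of the 2 Neto genes in air and 49.98%, 50.4% and 46.7% in hyperoxia. The summed Neto level per kilobase was 0.195 ± 0.00372 (SD, n = 3) of the summed subunit level in air and 0.255 ± 0.0248 (SD, n = 3) in hyperoxia. Each of these shares was separated between the groups, Grik4 only by 13.03% in hyperoxia 3 against 13.06% in air 3. The share of Grik1, a gene that was not called, was also separated, at 3.29% in air and 3.64% in hyperoxia on average. Within the low-affinity subunits, the part of Grik2 was separated and lower, at 45.8% in air and 37.5% in hyperoxia on average. The sum overlapped, as did the Grik2 share and the Grik5 share (72.1% in air and 70.9% in hyperoxia on average). So did the part of Grik4 in the high-affinity pair and of Grik1 in the low-affinity subunits. The longest transcript gave the same directions, but a fixed length scales a gene alike in all libraries and gives no separate support. The shares were not computed after the length and GC correction. It put Neto1 at −0.32, Neto2 at 0.44, Grik2 at −0.40 and Grik3 at 0.57 on the log2 scale.

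**Figure D4:**
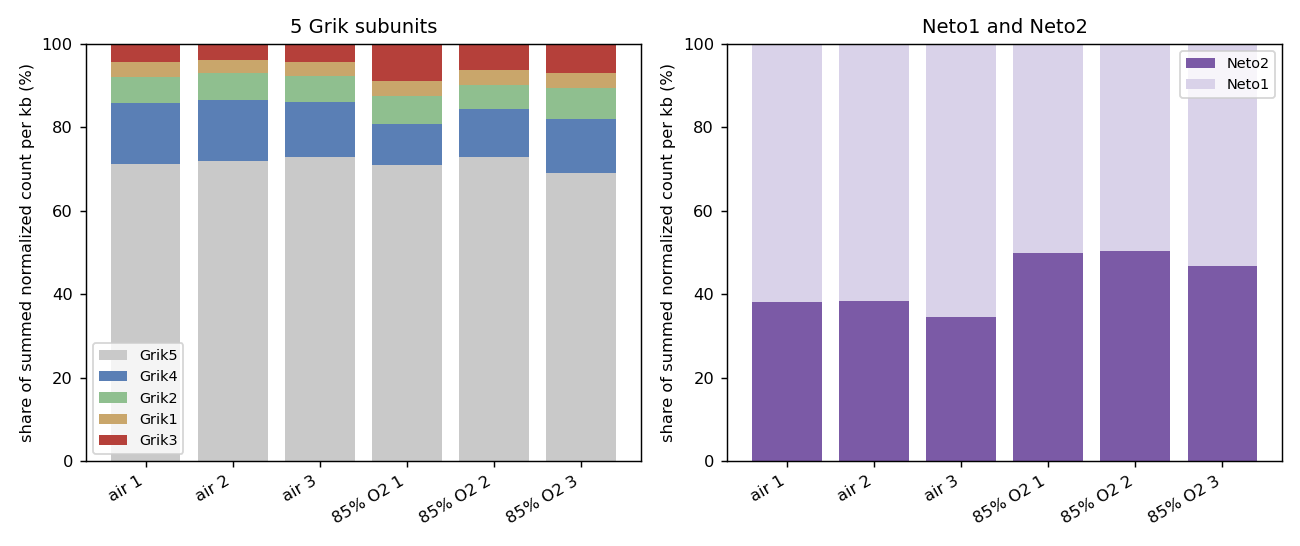
Share of the summed normalized count per kilobase of exon (vertical axis, percent) in each library, for the 5 Grik subunits (left) and for Neto1 and Neto2 (right). The Grik3 share is larger in the hyperoxia libraries, at 6.29% to 8.80% against 3.86% to 4.43% in air, and Neto2 rises from under 39% to over 46% of the Neto pair.

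For each member, the 2 protein-coding genes with the most similar course over the 6 libraries were found by the root-mean-square difference of centred log2 values. For Grik3 these were Map3k9 and Adamts2, at differences of 0.050 and 0.055. For Grik4 they were Frat2 and Slc29a1 (0.030 and 0.041), and for Neto2 Lama4 and Cav2 (0.035 and 0.052). The uncalled members were paired with other nearly flat genes, Grik1 with Vars and Irgq (0.017 and 0.024), Grik2 with Stag1 and Nfx1 (0.018 and 0.019), Grik5 with Clcc1 and Prpsap1 (0.017 and 0.019) and Neto1 with Creb3l2 and Atf7 (0.023 and 0.023). Among the members themselves, Grik2 and Neto1 were the closest pair at 0.041, and Grik3 and Grik4 the most distant at 0.61.

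Partners of kainate receptors were taken from a list by role, of which 24 genes are reported. Of these, 6 were higher, 5 lower and 13 not called, to be read beside the 30.5% called over all genes tested. That share also stands beside the counts for scaffolds, receptor families and cell type markers below. The median log2 difference of the partners was 0.0043, beside −0.01 over all genes tested. Among the RNA editing enzymes, Adarb1 (ADAR2, which edits the glutamine codon shown above) was called higher, at 4632, 4606 and 4938 in air and 5650.3, 5295 and 5618 in hyperoxia. Its log2 difference of 0.22 (standard error 0.07, limma adjusted p = 0.032) lost its call in 7 of 17 alternatives, which were the length and GC correction (0.10, limma adjusted p = 0.16), limma without the trend (0.074) and the omission of air 1 (0.12), air 2 (0.13), air 3 (0.061), hyperoxia 1 (0.11) or hyperoxia 3 (0.060).

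Of the scaffolds that bind subunit tails, 3 of 8 were higher, 2 lower and 3 not called. Dlg1 (SAP97) was at 2031 ± 117 in air and 3006 ± 482 in hyperoxia (SD, n = 3 each), a log2 difference of 0.55 (limma adjusted p = 0.0053). Cask, a membrane-associated kinase-like scaffold, differed by 0.51 (limma adjusted p = 0.0030), and Dlg2 (PSD-93) by 0.46 (0.0039), which fell to 0.19 (0.071) with the length and GC correction. Dlg3 (SAP102) was lower by −0.34 (limma adjusted p = 0.012), though not called without air 2 (0.054) or air 3 (0.055). Dlg4 (PSD-95) was lower by −0.33 (limma adjusted p = 0.019) and lost its call under quantile normalization (0.24) and without air 1 (0.086), air 2 (0.063), air 3 (0.065) or hyperoxia 1 (0.063). Dlg1 and Cask thus moved against Dlg3 within a single scaffold group.

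Among the mossy fibre organizers, C1ql2, a secreted protein of granule cell axons that clusters postsynaptic kainate receptors in CA3, showed the largest difference of the partners. It was at 2433 and 2399 in air 1 and air 2 and 2179 in air 3, and at 814, 1151 and 1020.2 in hyperoxia 1 to 3. The log2 difference was −1.24 (standard error 0.12, limma adjusted p = 3.5e-04) and every alternative called it. Its relative C1ql3 differed by −0.10 (limma adjusted p = 0.45) and the neurexin gene Nrxn3 by 0.02 (0.90), neither of them called. C1ql2 is also one of the 8 dentate granule cell markers, of which 5 were lower and none higher.

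Of 6 trafficking and turnover genes, 1 was higher, 1 lower and 4 not called. Klhl24, which encodes the kainate receptor interacting protein KRIP6, was at 1063, 1197 and 1258 in air and 2139, 1460.5 and 2308 in hyperoxia. Its log2 difference was 0.72 (standard error 0.15, limma adjusted p = 0.0077), with hyperoxia 2 the least raised. Kif17, the gene of a dendritic kinesin that carries glutamate receptor subunits, was lower by −0.37 (limma adjusted p = 0.0070). The β-catenin gene Ctnnb1 was higher by 0.40 (limma adjusted p = 0.0049). All 17 alternatives called Klhl24, Kif17 and Ctnnb1. Slc30a3, the vesicular zinc transporter of mossy fibres, was at 3056 ± 232 in air and 2635 ± 293 in hyperoxia (SD, n = 3 each) and was not called (log2 difference −0.22, limma adjusted p = 0.12). Gnao1, which encodes a G protein subunit tied to kainate receptor signalling, was lower by −0.29 (limma adjusted p = 0.029), and 7 of the 17 alternatives did not call it, among them quantile normalization (−0.09, 0.34) and the omission of air 1 (−0.23, 0.12).

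The AMPA and NMDA receptor families gave 2 higher, 2 lower and 7 uncalled genes of 11. Gria4 was higher by 0.50 (limma adjusted p = 0.0038) and Gria1 lower by −0.62 (0.0041) among the AMPA subunits, and Grin3a was higher by 0.66 (0.0013) and Grin1 lower by −0.59 (9.8e-04) among the NMDA subunits. Grin2b and Gria2 were not called, but were higher by 0.61 and 0.40 without hyperoxia 2 (limma adjusted p = 2.5e-04 and 0.0036). With the length and GC correction, Grin2b was at −0.03 (limma adjusted p = 0.83) and Gria2 was lower by −0.26 (0.015). The same correction also called Grin2a (−0.55, 8.5e-04), Gria3 (−0.38, 7.6e-04) and Grin2c (−0.16, 0.047) lower. These directions, like those of Dlg4 and of the members, hold only as far as the column names do. No test was made of a difference between the families.

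**Figure D5:**
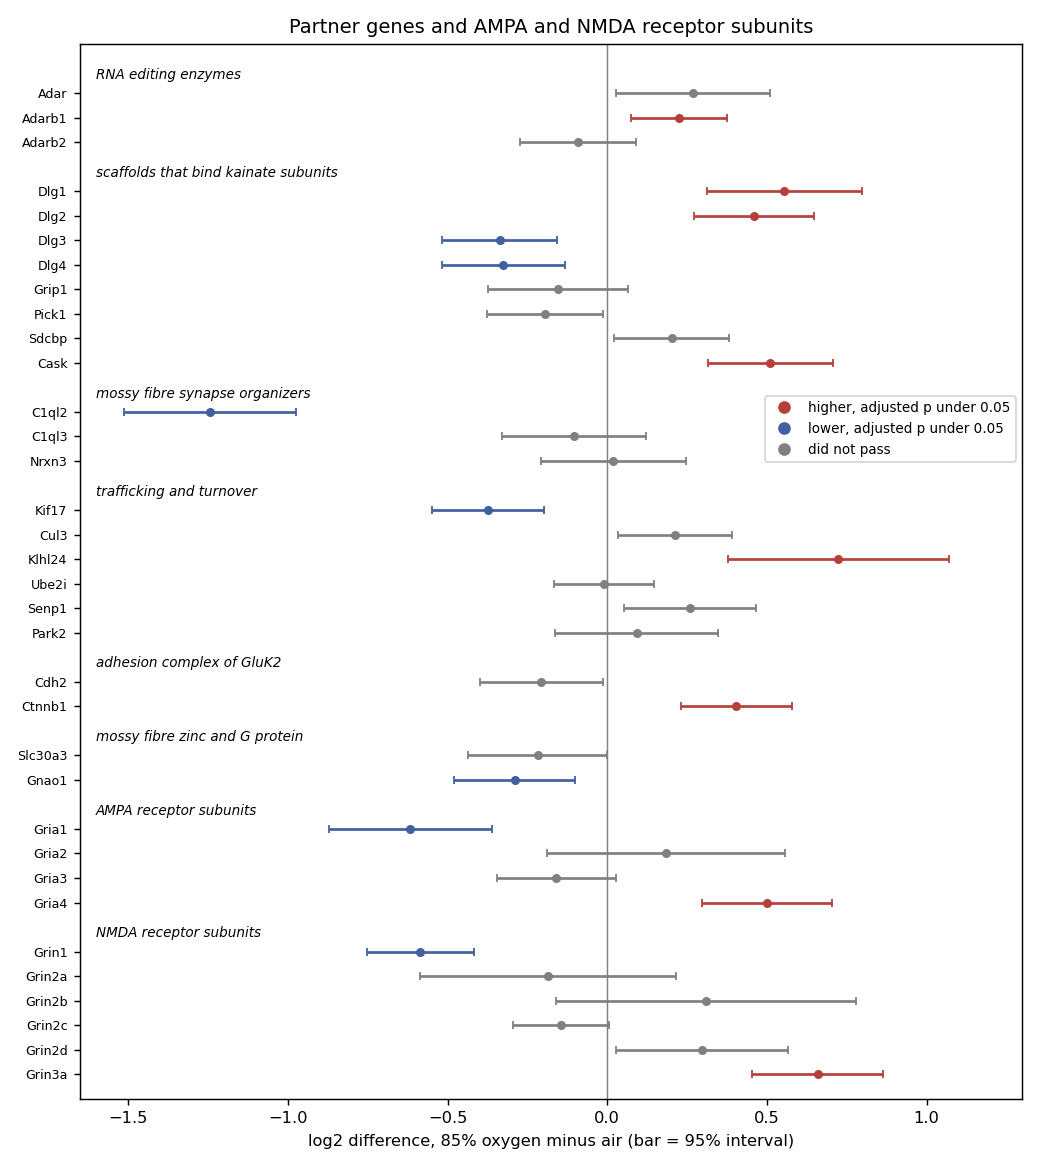
Log2 difference, hyperoxia minus air, with 95% intervals for the partner genes and for the AMPA and NMDA receptor subunits, grouped by role (Grin3b, at a mean of under 20, is left out). Red marks genes called higher, blue genes called lower and grey genes not called, with C1ql2 at −1.24 the lowest and Klhl24 at 0.72 the highest.

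Markers of hippocampal cell types and of neighbouring tissue were measured in the same libraries. Of 5 CA3 pyramidal cell markers, Iyd (−0.99, limma adjusted p = 0.0059) and Cdh24 (−0.68, 0.0015) were lower beside Grik4. The other 3, Bok (−0.18, 0.33), Nectin3 (0.09, 0.57) and Spock1 (0.07, 0.47), were not called. The summed normalized count of the 5 ran from 13662 to 14039 in air and from 12497 to 14453 in hyperoxia. The 8 dentate granule cell markers were summed at 17082 to 17732 in air and 10479 to 15152 in hyperoxia. Of 12 GABAergic interneuron markers, 2 were higher, 2 lower and 8 not called, with sums of 29421 to 33621 in air and 28909.9 to 36484 in hyperoxia. Beside the rise of Grik3 and Neto2, 3 of 4 markers of subiculum and neocortex were higher, led by Tshz2 (2.20, limma adjusted p = 2.6e-04) and Foxp2 (1.93, 5.9e-04). The remaining marker, Fezf2, was not called (−0.21, limma adjusted p = 0.16), with means of 1850 in air and 1594 in hyperoxia. The 4 were summed at 2571 to 3013 in air and 3108 to 3701 in hyperoxia. Of 4 oligodendrocyte precursor markers, Pdgfra (0.58, limma adjusted p = 5.9e-04) and Cspg4 (0.41, 0.0076) were higher, while Olig2 (−0.05, 0.76) and Sox10 (−0.17, 0.34) were not called, and the 4 were summed at 8719 to 9807 in air and 10395 to 11534 in hyperoxia. The 5 oligodendrocyte markers were all lower, with sums of 198358 to 303212 in air and 132944 to 163276 in hyperoxia. Of the 5 CA2 markers, Cacng5 was higher (0.31, limma adjusted p = 0.033), Rgs14 lower (−0.86, 4.5e-04) and 3 were not called. The CA2 markers were summed at 4090.2 to 4182 in air and 2937 to 3432 in hyperoxia, and Rgs14 alone had means of 2673 and 1474.5. None of these markers was at 0 in all libraries. Their part in the differences of Grik3, Grik4 and Neto2 was not tested.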

How the data were processed

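The transcriptome of the left hippocampus was measured in 3 air and 3 hyperoxia pups at P14. PolyA RNA was made into strand-specific libraries and sequenced from both ends (Illumina NextSeq). The submitters' processing notes name FastQC, STAR 2.5.3a, HTSeq and DESeq2. Genome build, annotation and use of strand in counting were not given in the sources used here. What was deposited is a signal, the normalized count per gene, that is, the reads divided by the authors by 1 size factor per library. Divided by what 1 read is worth in its library, each value (100%) was whole to within 0.01, so reads could be recovered. A second deposited table holds the authors' own comparison (mean count, fold change, standard error, Wald statistic and p-values) and was not used.

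Values were compared as log2(normalized count + 1) with a required mean of 10 or more (17778 genes), by limma 3.58.1 (mean-variance trend, R 4.3.3) and Benjamini-Hochberg adjustment, calling genes under 0.05. Since the deposited values are normalized, count tests served as alternatives only. The 17 alternatives changed the pseudocount (0.5 or 5), the filter (none, or a mean of 50), the scaling (TMM or quantile) or the test (limma with no trend, edgeR 4.0.16 and DESeq2 1.42.0 on the recovered reads with 5501 and 5611 genes called). Others took out the smooth dependence on transcript length and GC content per library (mgcv 1.9.3), added the column number as a block, or left out each library in turn. The fit was run on simulated counts with the same spread in both groups and no trend with length or GC content. That run does not give the error rate in these libraries. The genes named are the 7 members, the genes of the partner and receptor lists that passed the test or serve as a contrast, and the 2 nearest genes of each member, while marker genes named were chosen after their values were seen. A few genes of the lists are not reported here. The members and lists were chosen with earlier results of these data known. Where a symbol had several rows, the row with the highest mean was used. Of the identifiers, 99.7% were found in GENCODE release M21 (GRCm38), which gave positions, exon lengths and transcripts. Promoter sequences are those of RefSeq on GRCm38.p6, found for 5 of the 7 members. Replicates are separate animals. Libraries held 30384052 to 38746972 reads on genes, and the members 735 reads or more in each.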

Additional observations from a re-analysis of the deposited data

How the results depend on the processing

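Grik3 and Neto2 were called under all 17 alternatives, at 0.57 to 0.82 and 0.44 to 0.78 on the log2 scale, and Grik1 and Grik5 under none of them, with the sign kept. Grik4 kept its sign in all 17, at −0.45 to −0.23, but lost its call in limma without the trend (−0.35) and in 4 of the 6 analyses with a library left out, which ranged from −0.43 to −0.23. Grik2 turned sign under quantile normalization (−1.6e-04) and the length and GC correction (−0.40), and lay between −0.068 and 0.066 with each library left out. Neto1 turned sign under the length and GC correction (−0.32) and lay between −0.045 and 0.097 with each library left out. The number of members called was 3 as reported, 5 with the length and GC correction and 2 in limma without the trend. With each library left out, it lay between 2 and 3, and the number of all genes called between 3048 and 7756. The cause of these changes was not tested. The members had at least 735 reads in each library, and the groups 3 animals each.

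Column numbers 1 to 3 are shared between the groups, but nothing says that they mark a litter or day. The deviations of same-numbered libraries from their group means correlated at −0.08, 0.13 and 0.10 over genes, so the numbers were not taken as pairs. With the number as a replicate block, 6211 genes were called against 5425, and the same 3 members.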
